A study of Mus musculus with 23 samples.

Results

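Trp63, Klf4, Klf5, Grhl1, Grhl3, Ovol1, Gata3, Sox2, Sox9 and Sox21 code for transcription factors that stratified epithelia, such as the skin and the lining of the mouth, use to keep or to leave the basal state. The 10 genes were taken by name: each array probe whose symbol in the platform's annotation is one of them was included, which gave 16 of 25697 probes and 10 of 16593 named genes. Expression was read on Illumina MouseRef-8 v2 bead arrays, 1 array per tumour, in 23 oral tumours from C57BL/6 mice that had grown for 21 days. The labels define 5 groups. KHR-N-/- tumours (n = 5) and KHR-N+/- tumours (n = 4) are KHR tumours labelled Notch1-/- and Notch1+/-, and KHR tumours (n = 5) carry no Notch1 label; the series title speaks of intact or deficient Notch1. KR-N-/- tumours (n = 4) and KR-N+/- tumours (n = 5) are KR tumours with the same pair of Notch1 genotypes, with no group of plain KR tumours analysed here. Neither code is spelled out in the labels, which also name no promoter or Cre and do not say how many animals or clones the tumours came from, so p-values here measure only the spread between these tumours, which may be technical.

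In a stratified epithelium, cells divide in the basal layer and then move up while they switch on other keratins, cornified envelope proteins and junction proteins. p63, the product of Trp63, is the factor that basal cells depend on, while Klf4, Grhl3 and Ovol1 act in cells that are leaving the basal layer. Notch1, a receptor whose cleaved intracellular part works with the DNA-binding protein RBPJ, is known in mouse epidermis to promote that step. Sox2 marks progenitors of the oral lining, and Sox9 and Sox21 are best known in skin from the hair follicle.

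RefSeq promoter entries (GRCm38.p6) matched 6 of the 10 factors. The windows given here run from 250 bases before to 50 bases after a transcript start, which for Grhl1 lies inside the gene coordinates given below. They are shown for Klf4, Grhl1 and Grhl3, whose levels moved together across tumours, as did that of Ovol1, which had no entry. They are also shown for Sox21, which passed the test in more comparisons than the other factors. Capitals mark matches to the core motif of RBPJ (TGGGAA, or TTCCCA on the other strand) and to the GC box bound by Klf and Sp factors (GGGCGG, or CCGCCC on the other strand).
Klf4, chr4:55532426-55532725, minus strand: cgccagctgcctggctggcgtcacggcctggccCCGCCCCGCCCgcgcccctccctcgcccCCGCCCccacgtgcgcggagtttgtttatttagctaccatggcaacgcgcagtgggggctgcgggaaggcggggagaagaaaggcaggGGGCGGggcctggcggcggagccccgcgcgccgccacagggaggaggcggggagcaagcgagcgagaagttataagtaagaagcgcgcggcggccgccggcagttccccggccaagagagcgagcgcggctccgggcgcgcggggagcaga
Grhl3, chr4:135573583-135573882, minus strand: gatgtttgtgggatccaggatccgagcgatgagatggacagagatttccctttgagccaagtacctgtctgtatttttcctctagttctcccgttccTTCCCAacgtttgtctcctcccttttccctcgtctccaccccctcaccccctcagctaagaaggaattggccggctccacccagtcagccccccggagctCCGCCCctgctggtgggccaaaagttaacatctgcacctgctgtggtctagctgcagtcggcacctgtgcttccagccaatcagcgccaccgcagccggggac
Grhl1, chr12:24572037-24572336, plus strand: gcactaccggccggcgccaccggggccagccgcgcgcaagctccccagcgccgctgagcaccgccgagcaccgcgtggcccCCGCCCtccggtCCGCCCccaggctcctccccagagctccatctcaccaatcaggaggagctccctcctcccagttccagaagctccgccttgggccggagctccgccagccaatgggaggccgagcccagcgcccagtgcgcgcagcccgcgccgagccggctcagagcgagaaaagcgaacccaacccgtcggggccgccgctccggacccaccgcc
Sox21, chr14:118236981-118237280, minus strand: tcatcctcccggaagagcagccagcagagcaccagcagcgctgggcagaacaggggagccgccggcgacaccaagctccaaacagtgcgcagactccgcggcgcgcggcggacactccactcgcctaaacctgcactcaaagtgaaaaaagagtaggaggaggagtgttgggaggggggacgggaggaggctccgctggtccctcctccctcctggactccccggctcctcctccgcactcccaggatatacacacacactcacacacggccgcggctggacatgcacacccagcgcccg
The Klf4 window held 4 GC boxes, of which the pair farthest from the start overlap, and the Grhl1 window held 2. Grhl1 has a second RefSeq start, whose window (not shown) held neither motif. The Grhl3 window held 1 GC box and 1 RBPJ core, which begins at -153 from the start. No match of either motif was found in the Sox21 window. Of 32807 mouse promoter windows of this length, 35.6% held a GC box and 25.6% held the RBPJ core, and a match here is a description of letters only.

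Notch1 itself was read first as a check of the labels, on the log2 scale of background-corrected, quantile-normalized probe intensity used throughout. It averaged 5.67 ± 0.16 in KHR-N-/- tumours and 8.27 ± 0.38 in KHR tumours (SD, n = 5 each), and 6.02 ± 0.38 in KR-N-/- tumours (n = 4) against 7.72 ± 0.28 in KR-N+/- tumours (n = 5). The KHR-N+/- tumours spread from 5.68 to 7.52, and the lowest of them, replicate 3, lay within the range of the KHR-N-/- tumours (5.40 to 5.80). KHR replicate 5 also stood apart, since 11 fibroblast and matrix markers averaged 7.78 in it, against 6.59 to 6.72 in the other KHR tumours. Results that rest on these 2 tumours are therefore also given without both. Mean probe intensity ran from 142.4 to 366.4 per array and 10353 to 12654 probes were above background, and precision is limited by how many arrays each group has.

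Sox21 was lower in both KHR groups with a Notch1 label than in KHR tumours, and Sox9 was lower in KHR-N-/- than in KHR tumours. Klf5 was higher and Grhl1 lower in KR-N-/- than in KR-N+/- tumours, and Klf4 was higher in KHR-N-/- than in KR-N-/- tumours. Trp63, Grhl3, Ovol1 and Gata3 did not pass the test in any of the 7 comparisons, and Sox2 was too close to background to be tested. The test was limma on 9732 genes that were above background, meaning a detection p-value below 0.05, on 4 or more arrays, with Benjamini-Hochberg adjustment within each comparison, and a gene passed at an adjusted p under 0.05. In such bulk samples, fewer cells of a type and less RNA per cell cannot be told apart.

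**Figure D1:**
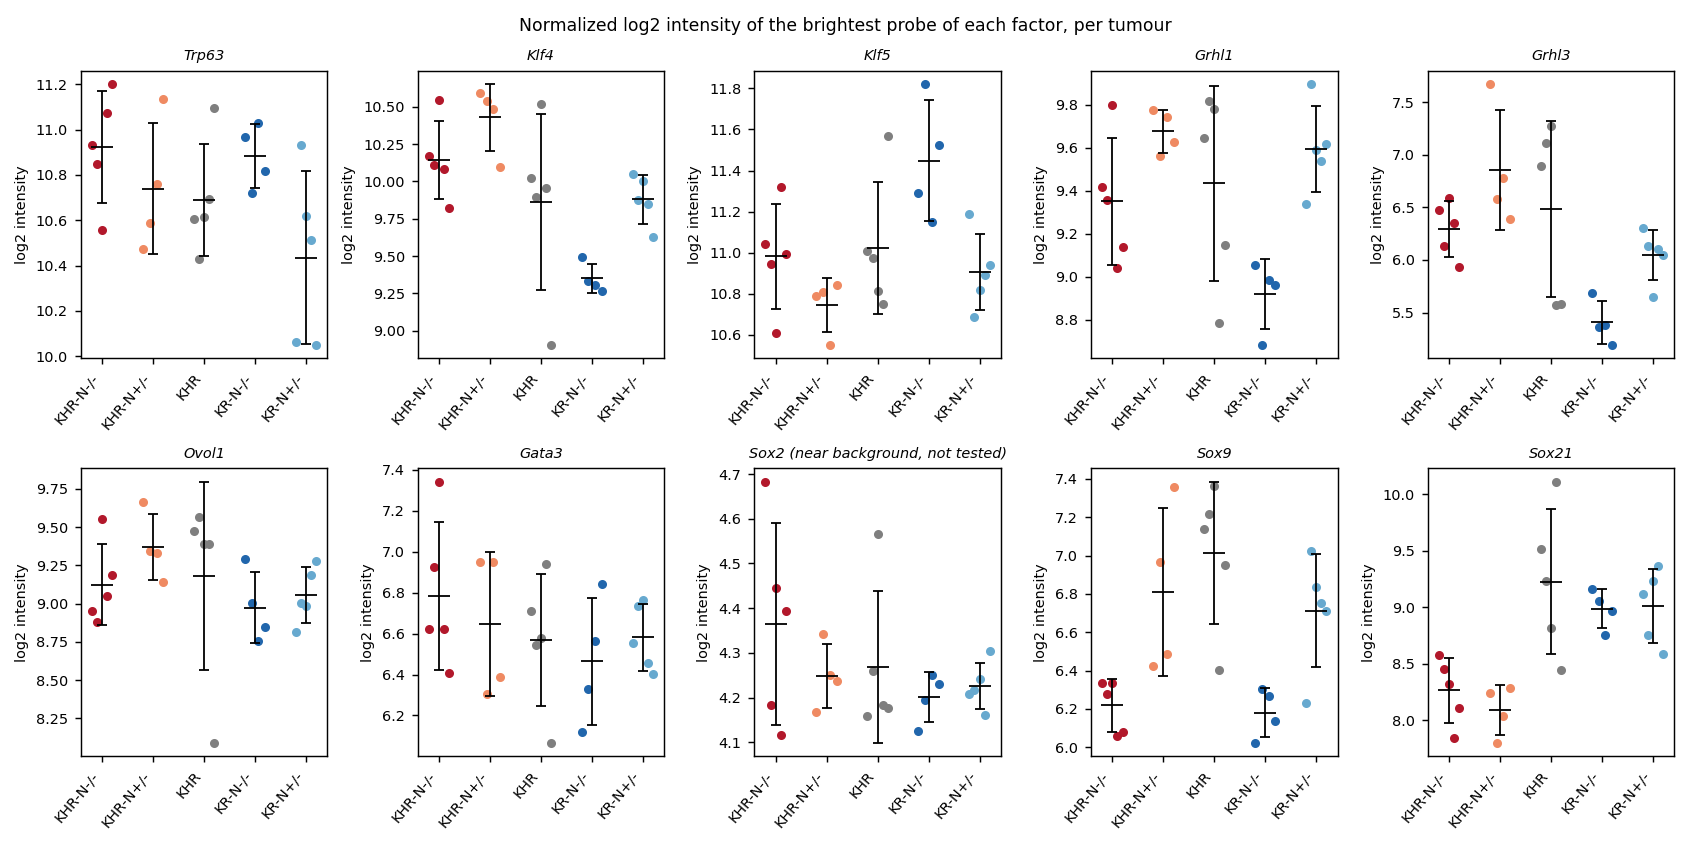
Normalized log2 intensity (vertical axis of each panel) of the brightest probe of each of the 10 factors in the 5 groups (horizontal axis). Each point is 1 tumour and the bars are the group mean and SD. The KHR-N-/- and KHR-N+/- points of Sox21 lie between 7.80 and 8.58, and Sox2 stays between 4.12 and 4.68, near background.

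Of the 9 tested factors, 2 passed in KHR-N-/- against KHR tumours, both lower, where 7.34% of all genes passed (4.57% higher and 2.76% lower). The median log2 difference of the 9 factors was -0.06, and that of all genes 0.01. For KHR-N+/- against KHR tumours, which share the KHR arrays with the comparison before, 1 of 9 passed, as lower, where 1.25% of all genes did (0.822% higher and 0.432% lower). Between KHR-N-/- and KHR-N+/- tumours 0 of 9 passed in limma, where 0.103% of genes did (0.0719% higher and 0.0308% lower), and 1 factor and 792 genes had an unadjusted p under 0.05. KR-N-/- against KR-N+/- tumours gave 2 of 9, 1 in each direction, where 16.2% of all genes passed (9.62% higher and 6.63% lower). Between the tumour types, 1 of 9 passed as lower in KHR-N+/- against KR-N+/- tumours, where 5.57% of genes passed (3.2% higher and 2.37% lower). KHR-N-/- against KR-N-/- tumours gave 2 of 9, 1 in each direction, where 12.8% passed (6.31% higher and 6.5% lower). The difference between the Notch1-/- effects in KHR and KR tumours (each against its Notch1+/- group) passed for 0 of 9 factors and 0 of 9732 genes in limma, with 0 factors and 793 genes at an unadjusted p under 0.05. The 2 groups did not overlap for 1 of 9 factors in KHR-N-/- against KHR (5.15% of all genes), 1 in KHR-N+/- against KHR (3.39%) and 1 in KHR-N-/- against KHR-N+/- tumours (4.91%). The same held for 2 of 9 in KR-N-/- against KR-N+/- (18.5%), 3 in KHR-N+/- against KR-N+/- (9.4%) and 3 in KHR-N-/- against KR-N-/- tumours (20.1%). These shares rest on few factors, and the 9 were not set apart from other genes by any test. When the 2 tumours that stood apart were left out, all 8 calls still passed, and the counts in the 6 pairwise comparisons were 2, 1, 0, 3, 1 and 4.

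**Figure D2:**
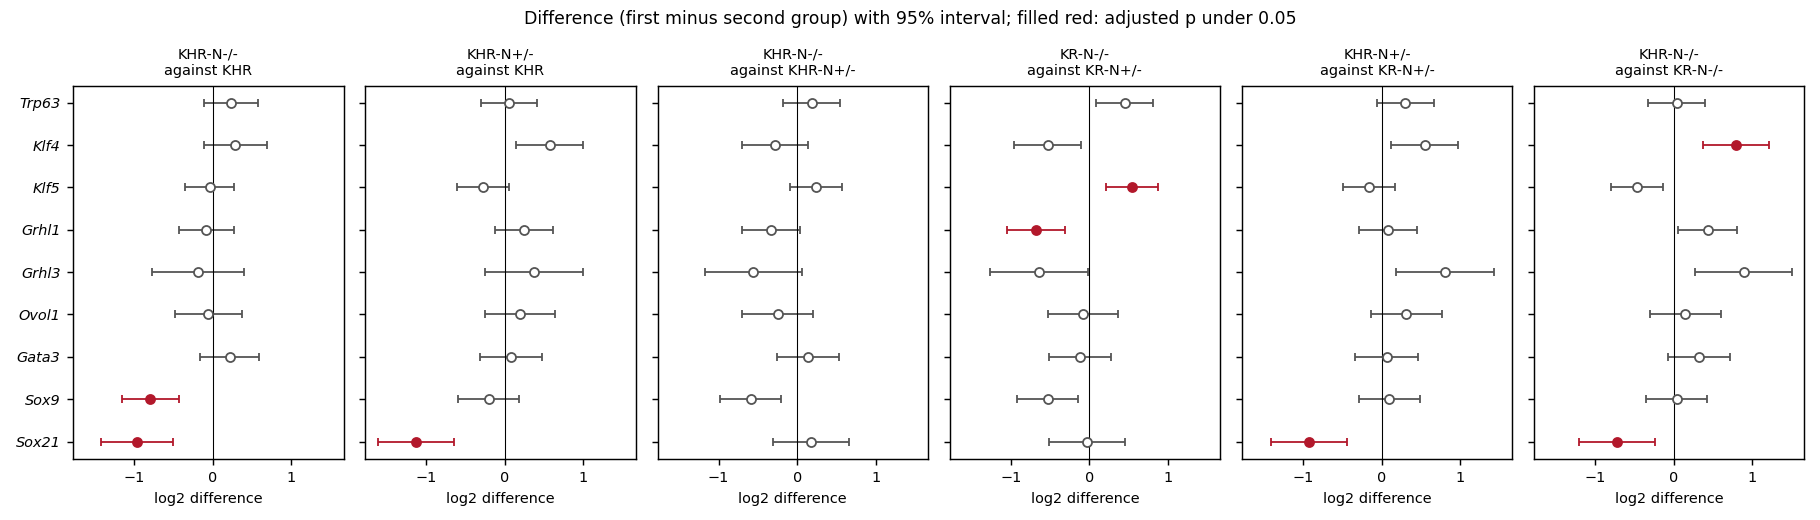
Log2 difference (horizontal axis, first-named minus second-named group) of the 9 tested factors (vertical axis) in the 6 pairwise comparisons. Points are limma estimates with 95% intervals, and filled red points passed at an adjusted p under 0.05: Sox9 and Sox21 in KHR-N-/- against KHR, Sox21 in KHR-N+/- against KHR, Klf5 and Grhl1 in KR-N-/- against KR-N+/-, Sox21 in KHR-N+/- against KR-N+/- (which turns to 0.08 when arrays are scaled to equal medians), and Klf4 and Sox21 in KHR-N-/- against KR-N-/-.

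Trp63 (chr16:25683763-25892088), read by 1 probe above background on all 23 arrays, ranged from 10.56 to 11.20 in KHR-N-/- tumours, from 10.47 to 11.14 in KHR-N+/- tumours and from 10.43 to 11.10 in KHR tumours. It read 10.97, 10.72, 11.03 and 10.82 in KR-N-/- tumours and 10.06, 10.93, 10.62, 10.51 and 10.05 in KR-N+/- tumours. The KR-N-/- tumours lay at the top of the KR-N+/- range, with 1 KR-N+/- tumour among them. The largest of the 6 pairwise differences was this one, 0.45 on the log2 scale with a 95% interval of 0.09 to 0.81 and a limma adjusted p of 0.0813. It passed without KR-N+/- replicate 2 (0.58, 0.0274) and with array intensity as a covariate (0.49, 0.0491), and turned to -0.12 (0.875) with the level of fibroblast markers as a covariate. In KHR-N-/- against KHR tumours the difference was 0.24, with an interval of -0.11 to 0.58. In the order of group means, which ran from KHR-N-/- (10.92) to KR-N+/- (10.44), each group overlapped the next.

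Of 22 basal genes listed as dependent on p63, 17 were tested. In KR-N-/- against KR-N+/- tumours 8 of 17 rose and none fell, where 9.62% of all genes rose, and the median log2 difference of the 17 was 0.57 against 0.04 for all genes. Lamb3, a chain of the laminin under basal cells, averaged 10.78 in KR-N-/- tumours and 9.49 in KR-N+/- tumours. Itga3 and Itgb4, integrin chains that bind that laminin, rose by 1.27 and 1.15, and Col17a1, a collagen of hemidesmosomes, by 0.88. Of the same 17, 3 rose in KHR-N-/- against KHR tumours, where 4.57% of all genes did: Itga6, the partner chain of Itgb4 (1.01), Col17a1 (0.91) and Cdh3, P-cadherin (0.49). Col17a1 was the 1 gene of the 17 that passed in KHR-N-/- against KHR-N+/- tumours (0.97), where all 17 estimates were above 0. None of the 17 passed in KHR-N+/- against KHR or KHR-N+/- against KR-N+/- tumours, and Dst, a linker of keratin to hemidesmosomes, was 0.47 lower in KHR-N-/- than in KR-N-/- tumours (-0.11, adjusted p 0.674, with arrays scaled to equal medians). With arrays scaled to equal medians, 0 of 17 passed in KR-N-/- against KR-N+/- and in KHR-N-/- against KHR tumours, with medians of 0.38 and 0.52. Fibroblast and matrix markers moved with these genes, averaging 8.06 in KR-N-/- and 7.08 in KR-N+/- tumours, and their part in the result was not tested for this list.

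Klf4 (chr4:55527137-55532475), a zinc finger factor needed for the skin barrier in mice, read 10.17, 10.11, 10.55, 10.09 and 9.82 in KHR-N-/- tumours and 9.49, 9.33, 9.31 and 9.27 in KR-N-/- tumours. All KHR-N-/- tumours lay above all KR-N-/- tumours. Klf4 was 0.80 higher on the log2 scale (SE 0.20, 1.74-fold, limma adjusted p 0.0137), and it passed in all 23 fits that left out 1 tumour. With array intensity as a covariate it did not pass (0.0933). In KR-N+/- tumours it read 10.05, 9.88, 10.00, 9.85 and 9.63, so that the KR-N-/- tumours lay below all of these too. That difference, -0.53 with an interval of -0.95 to -0.11, had an adjusted p of 0.0778, and 0.0151 without the 2 tumours that stood apart, but turned to 0.19 (0.806) with fibroblast markers as a covariate. In KHR-N+/- tumours Klf4 read 10.59, 10.54, 10.49 and 10.10, all above the KR-N+/- tumours (0.55, interval 0.12 to 0.97, adjusted p 0.122). The KHR tumours spread widest, at 10.02, 9.89, 10.52, 9.96 and 8.90, with replicate 5 lowest.

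All 3 Klf4 probes were above background on the 23 arrays. The dimmer probes gave, in KHR-N-/- against KR-N-/- tumours, log2 differences of 0.74 and 0.76, with adjusted p of 0.125 and 0.088 when each probe was tested on its own. They gave, in KR-N-/- against KR-N+/- tumours, -0.23 and -0.45. All 3 probes thus had the same direction in both comparisons.

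**Figure D3:**
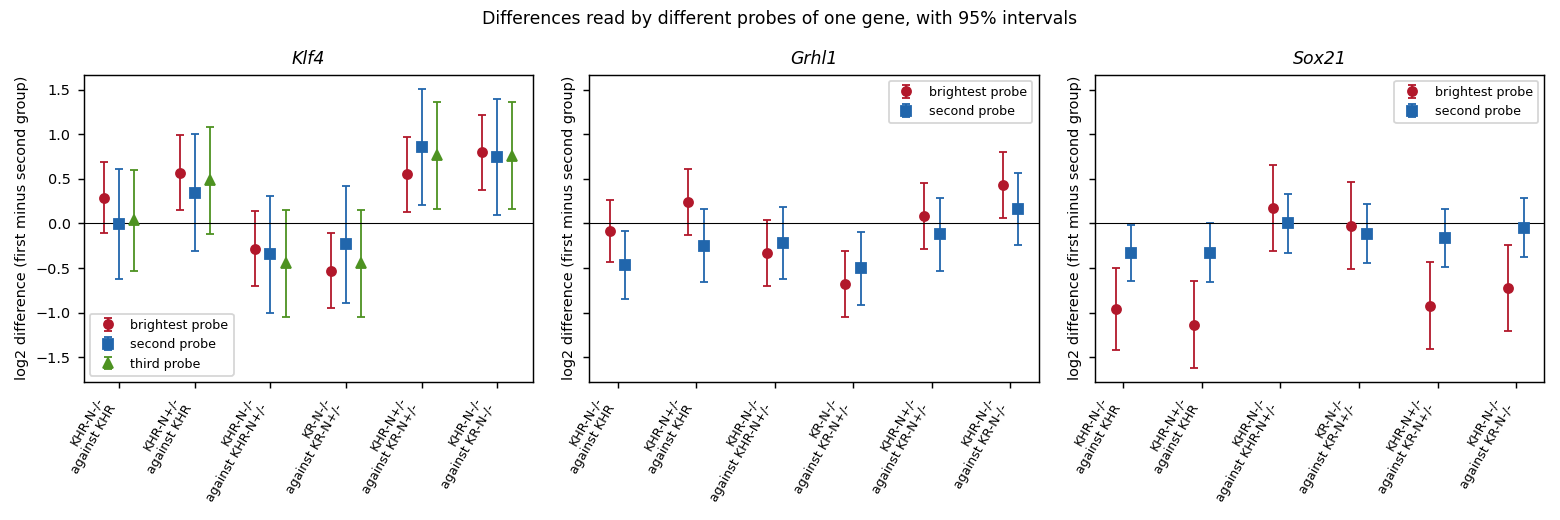
Log2 differences (first-named minus second-named group) in the pairwise comparisons for each probe of Klf4 (3 probes), Grhl1 (2) and Sox21 (2) that was above background on enough arrays. Points are limma estimates with 95% intervals. The Klf4 probes lie at 0.74 to 0.80 in KHR-N-/- against KR-N-/- tumours, whereas the second Sox21 probe lies nearer to 0 than the brightest one in each of the 4 comparisons in which the brightest passed.

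Of 20 suprabasal genes listed with Klf4, 19 were tested. In KR-N-/- against KR-N+/- tumours 7 of 19 fell and none rose, where 6.63% of all genes fell. Sprr3, a cornified envelope precursor, averaged 8.29 in KR-N-/- tumours and 11.59 in KR-N+/- tumours, a log2 difference of -3.31. Krt4 and Krt13, the keratin pair of suprabasal oral epithelium, differed by -2.16 and -1.48. Mal, a membrane protein of the same layers, differed by -2.62 and was above background on 2 of 4 KR-N-/- arrays and 5 of 5 KR-N+/- arrays. The same 19 had a median of -0.19 in KHR-N-/- against KHR-N+/- tumours and of -0.27 in KR-N-/- against KR-N+/- tumours, and 0 of 19 passed for the difference of effects. Ivl, involucrin, which is cross-linked into the cornified envelope, rose by 1.82 in KHR-N-/- and by 1.56 in KHR-N+/- against KHR tumours. It was the 1 gene of the 19 that passed in each, where 4.57% and 0.822% of all genes rose. With arrays scaled to equal medians Ivl passed in the first (limma adjusted p 0.0357) and not in the second (0.0813). Of the 19, 4 rose in KHR-N-/- against KR-N-/- tumours, where 6.31% of all genes did: Ivl (2.62), Sprr3 (1.58), Cnfn, cornifelin (1.27), and Sprr2d (1.15). With arrays scaled to equal medians, 0 of 19 fell in KR-N-/- against KR-N+/- tumours, with a median of -0.42.

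Klf5 (chr14:99298691-99313412), which in mouse epithelia is found mainly in dividing basal cells, read 11.29, 11.82, 11.15 and 11.52 in KR-N-/- tumours and 11.19, 10.69, 10.82, 10.89 and 10.94 in KR-N+/- tumours. The groups overlapped by 1 tumour on each side. Klf5 rose by 0.54 on the log2 scale (SE 0.16, 1.46-fold, adjusted p 0.0247). The call was lost without KR-N-/- replicate 2 (0.42, adjusted p 0.115), KR-N-/- replicate 4 (0.52, 0.063) or KR-N+/- replicate 2 (0.49, 0.0563), and with the level of fibroblast markers as a covariate (0.33, 0.612). Scaling arrays to equal medians also lost the call. In KHR-N-/- tumours Klf5 ranged from 10.61 to 11.32, in KHR-N+/- tumours from 10.55 to 10.84 and in KHR tumours from 10.75 to 11.57, with no comparison among them past the threshold. It was 0.47 lower in KHR-N-/- than in KR-N-/- tumours on the log2 scale (interval -0.80 to -0.13), with an adjusted p of 0.0581, and 0.0287 without the 2 tumours that stood apart, but with arrays scaled to equal medians it was 0.13 higher (0.729). The Notch1-/- effect in KHR tumours minus that in KR tumours was -0.31, with an interval of -0.78 to 0.16 and an adjusted p of 0.793.

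Grhl1 (chr12:24572232-24617391), a Grainyhead-like factor that in mice is needed for desmosomes and for anchoring hair, read 9.05, 8.68, 8.99 and 8.96 in KR-N-/- tumours and 9.34, 9.90, 9.59, 9.54 and 9.62 in KR-N+/- tumours. All KR-N-/- tumours lay below all KR-N+/- tumours. Grhl1 fell by 0.68 on the log2 scale (SE 0.18, 1.60-fold lower, adjusted p 0.0132). The call was lost without KR-N-/- replicate 2 (-0.60, adjusted p 0.0565), with the fibroblast covariate (-0.44, 0.524) and with arrays scaled to equal medians. Its second, dim probe was above background on 0 of 4 KR-N-/- arrays and 4 of 5 KR-N+/- arrays. By group means it read at least 1.21-fold lower in KR-N-/- tumours, a bound set by background that leaves out the spread between tumours. The measured means were 4.27 and 4.77. Their log2 difference had an interval of -0.91 to -0.10 and did not pass (limma adjusted p 0.0829). Grhl1 ranged from 9.04 to 9.80 in KHR-N-/- tumours, from 9.56 to 9.78 in KHR-N+/- tumours and from 8.78 to 9.82 in KHR tumours, and these ranges overlapped. The Notch1-/- effect in KHR tumours minus that in KR tumours was 0.35, with an interval of -0.17 to 0.87.

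Grhl3 (chr4:135541887-135573632), the Grainyhead-like factor that mice need to form the skin barrier, read 5.68, 5.37, 5.39 and 5.19 in KR-N-/- tumours and 6.30, 6.13, 5.65, 6.11 and 6.05 in KR-N+/- tumours. The KR-N-/- tumours were the lower ones, with 1 tumour of each group overlapping. The difference was -0.64, with an interval of -1.26 to -0.02 and an adjusted p of 0.147, and it turned to 0.43 (0.637) with fibroblast markers as a covariate. In KHR-N-/- tumours Grhl3 read 6.47, 6.13, 6.59, 6.35 and 5.93, all above the KR-N-/- tumours. That difference was 0.89 (interval 0.27 to 1.51), with an adjusted p of 0.0515, and 0.0332 without the 2 tumours that stood apart. In KHR-N+/- tumours it read 7.68, 6.58, 6.78 and 6.39, all above the KR-N+/- tumours (0.81, adjusted p 0.118). The KHR tumours were split, with 6.89, 7.11 and 7.27 in replicates 1 to 3 and 5.57 and 5.59 in replicates 4 and 5. Their arrays were split in the same way. Mean probe intensity was 299.3, 292.3 and 291.2 in replicates 1 to 3 and 204.1 and 215.8 in replicates 4 and 5. Mean bead counts were 28.36, 27.01 and 30.99 against 38.01 and 39.62. The part of the arrays in the Grhl3 split was not tested. Weighting the arrays by their quality gave a difference of -0.57 for KHR-N-/- against KHR tumours that passed (adjusted p 0.036), where the unweighted value was -0.19 (0.771).

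Of 16 genes listed as Grainyhead targets, 13 were tested. In KR-N-/- against KR-N+/- tumours 3 fell and 1 rose, where 6.63% of all genes fell and 9.62% rose, and the median log2 difference of the 13 was -0.38 against 0.04 for all genes. Those that fell were Cldn1, a tight junction claudin (6.84 in KR-N-/- and 7.94 in KR-N+/- tumours), Prss8, a membrane protease needed for the epidermal barrier (-1.04), and Ppl, periplakin, which links keratin to desmosomes (-0.89). Pkp1, a desmosomal plaque protein, rose by 0.26. Of the 13, 2 fell in KHR-N-/- against KHR tumours, where 2.76% of all genes did, Prss8 (-0.91) and Esrp1, an epithelial splicing factor (-0.83). With arrays scaled to equal medians neither passed there (limma adjusted p 0.501 and 0.32). Of the 13, 3 rose in KHR-N-/- against KR-N-/- tumours, where 6.31% of all genes did, Cldn1 (0.80), Cldn4, another claudin (0.68), and Ppl (0.60), and Cldn4 was also higher in KHR-N+/- than in KR-N+/- tumours (0.75). None passed in KHR-N+/- against KHR or in KHR-N-/- against KHR-N+/- tumours. With arrays scaled to equal medians, 0 of 13 passed in KR-N-/- against KR-N+/- tumours (median -0.36). That scaling moved the median of all genes to 0.65 in KHR-N+/- against KR-N+/- tumours, where 11 of 13 were higher. This count was therefore not read as a result about the 13 genes.

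Ovol1 (chr19:5549137-5560575), a zinc finger repressor that in mouse epidermis restrains the division of cells leaving the basal layer, ranged from 8.88 to 9.55 in KHR-N-/- tumours, from 9.14 to 9.67 in KHR-N+/- tumours and from 8.09 to 9.57 in KHR tumours. It ranged from 8.76 to 9.29 in KR-N-/- tumours and from 8.82 to 9.28 in KR-N+/- tumours. The ranges overlapped in every comparison, and the log2 differences lay between -0.25 and 0.32. Of 7 tested genes linked with Ovol1, 0 passed in any comparison.

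Gata3 (chr2:9857078-9887953), which in mouse skin is needed for the inner root sheath and for barrier lipids, ranged from 6.41 to 7.34 in KHR-N-/- tumours, from 6.30 to 6.95 in KHR-N+/- tumours and from 6.06 to 6.94 in KHR tumours. It ranged from 6.12 to 6.84 in KR-N-/- tumours and from 6.40 to 6.76 in KR-N+/- tumours. Its largest log2 difference was 0.32, in KHR-N-/- against KR-N-/- tumours, with an interval of -0.08 to 0.72. T cells also express Gata3, and 10 T cell markers are on the array. Cd5 was detected on 23 arrays, Il7r on 18, Cd3d on 8, Cd3e on 7, Cd8b1 on 6, Cd3g on 5, Cd2 on 4, Cd4 and Cd247 on 1 each and Cd8a on 0. The 7 tested averaged 4.48 to 4.61 in the 5 groups, and none passed in any comparison.

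Sox2 (chr3:34649995-34652461) was near the background of the array. Of its 2 probes, the brighter was detected on 3 of 23 arrays, namely 2 KHR-N-/- tumours and 1 KHR tumour, and the other on 1 array, a KHR-N+/- tumour. Levels from 4.12 to 4.68 on the brighter probe have no order there and were not compared.

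Sox9 (chr11:112782210-112787757), which in mice marks stem cells of the hair follicle, read 6.33, 6.28, 6.34, 6.06 and 6.08 in KHR-N-/- tumours and 7.14, 7.21, 7.36, 6.40 and 6.95 in KHR tumours. The groups did not overlap, although KHR replicate 4 lay close to the KHR-N-/- tumours. Sox9 fell by 0.80 on the log2 scale (SE 0.18, 1.74-fold lower, adjusted p 0.00615), and it passed in all 23 fits that left out 1 tumour. Skeletal muscle markers also differed here, averaging 8.43 in KHR-N-/- and 7.57 in KHR tumours, and with their level as a covariate the Sox9 difference was -0.43 (adjusted p 0.546). With fibroblast markers as a covariate it was -0.95 (0.162), and with pan-epithelial markers -0.52 (0.202). Scaling arrays to equal medians also lost the Sox9 call. Cartilage cells also express Sox9, and of 10 chondrocyte markers Sox5 was detected on 11 arrays, Comp on 9, Col9a1 and Col11a2 on 7 each, Col2a1 and Col11a1 on 3 each, Acan on 1 and Matn1, Matn3 and Chad on 0. The 4 tested averaged 4.41 to 4.47 in the 5 groups, and none passed in any comparison.

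In KHR-N+/- tumours Sox9 read 6.42, 6.97, 6.48 and 7.36, all above the KHR-N-/- tumours. The difference of KHR-N-/- from KHR-N+/- tumours was -0.59 (interval -0.98 to -0.20, adjusted p 0.27). In KR tumours Sox9 read 6.02, 6.30, 6.27 and 6.13 with Notch1-/- and 6.23, 7.02, 6.84, 6.75 and 6.71 with Notch1+/-. The KR-N-/- tumours were lower except that 1 KR-N+/- tumour lay among them, and the difference was -0.53 with an interval of -0.92 to -0.14 and an adjusted p of 0.0556. The Notch1-/- effect in KHR tumours minus that in KR tumours was -0.06 (-0.61 to 0.49).

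Sox21 (chr14:118233233-118237030), which mice need for the cuticle of the hair shaft, read 8.58, 8.46, 8.32, 7.85 and 8.11 in KHR-N-/- tumours, 8.24, 7.80, 8.04 and 8.28 in KHR-N+/- tumours and 9.51, 9.23, 8.81, 10.11 and 8.45 in KHR tumours. All KHR-N+/- tumours lay below all KHR tumours, and the KHR-N-/- tumours overlapped only KHR replicate 5. Against KHR tumours, Sox21 fell by 0.96 in KHR-N-/- tumours (SE 0.22, 1.95-fold lower, adjusted p 0.00789). It fell by 1.13 in KHR-N+/- tumours (SE 0.24, 2.20-fold lower, adjusted p 0.0153). Without the 2 tumours that stood apart these were -1.16 (0.000712) and -1.31 (0.00382). KHR-N-/- and KHR-N+/- tumours differed by 0.17, with an interval of -0.31 to 0.66.

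In KR tumours Sox21 read 9.16, 9.06, 8.76 and 8.97 with Notch1-/- and 9.12, 8.75, 9.23, 9.37 and 8.59 with Notch1+/-. These overlapped, with a difference of -0.03 and an interval of -0.51 to 0.46. Both KHR groups with a Notch1 label lay wholly below their KR counterparts. Sox21 was 0.72 lower in KHR-N-/- than in KR-N-/- tumours (SE 0.24, adjusted p 0.0439) and 0.92 lower in KHR-N+/- than in KR-N+/- tumours (SE 0.24, adjusted p 0.0208), but with arrays scaled to equal medians, which moved the median of all genes to 0.39 and 0.65, these were -0.02 and 0.08. In the order of group means, the step from KR-N-/- (8.99) down to KHR-N-/- (8.26) was the 1 step between neighbouring groups without overlap among the 9 tested factors.

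The Sox21 calls came from its brightest probe. The second probe was dim, above background on 21 of 23 arrays, and gave -0.33 in KHR-N-/- against KHR tumours (adjusted p 0.223), -0.33 in KHR-N+/- against KHR (0.475), -0.16 in KHR-N+/- against KR-N+/- (0.616) and -0.05 in KHR-N-/- against KR-N-/- tumours (0.888). The third was not detected on any array. Fibroblast markers averaged 8.25 in KHR-N-/- and 6.88 in KHR tumours, and with their level as a covariate the Sox21 difference was -0.25 (adjusted p 0.854). For KHR-N+/- against KHR tumours, where those markers averaged 7.36 and 6.88, it was -0.88 (0.0588). The call in KHR-N+/- against KHR tumours was also lost without KHR-N+/- replicate 2 (0.0763), KHR-N+/- replicate 3 (0.0588) or KHR replicate 1 (0.0537). Both calls against KHR tumours were lost with arrays scaled to equal medians and in fits of only the groups compared. That of KHR-N-/- tumours was also lost with muscle markers as a covariate.

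Of 6 tested genes linked with Sox factors in squamous progenitors, 3 rose in KR-N-/- against KR-N+/- tumours, where 9.62% of all genes did: Etv4, an ETS factor (1.14), Nrp1, a semaphorin and VEGF co-receptor (0.88), and Ptn, pleiotrophin (0.59). With arrays scaled to equal medians these 3 did not pass there (limma adjusted p 0.72, 0.929 and 0.939). Etv4 and Ptn were lower in KHR-N-/- than in KR-N-/- tumours (-0.87 and -0.76), where 6.5% of all genes were. With arrays scaled to equal medians they were at -0.17 and -0.08 and neither passed. None of the 6 passed in the other 4 pairwise comparisons. Of 6 tested hair follicle genes 1 was lower in KR-N-/- than in KR-N+/- tumours, where 6.63% of all genes were. It was Foxc1, a forkhead factor of follicle stem cells (-0.65), above background on 3 of 4 KR-N-/- arrays. With arrays scaled to equal medians Foxc1 did not pass (limma adjusted p 0.974). Cd34, which marks those stem cells and also endothelium, was lower in KHR-N+/- than in KR-N+/- (-0.62) and in KHR-N-/- than in KR-N-/- tumours (-0.47). It was 1 of 6 in each, where 2.37% and 6.5% of all genes were lower. Both Cd34 values turned positive with arrays scaled to equal medians (0.05 and 0.02). Of 9 endothelial markers, 0 had an estimate above 0 in KHR-N-/- against KR-N-/- tumours (median -0.34). There 1 of 9, Pecam1, passed as lower (-0.63), where 6.5% of all genes did. In KR-N-/- against KR-N+/- tumours all 9 estimates were above 0 (median 0.43), and Tek (0.82) and Cdh5 (0.46) rose, where 9.62% of all genes did. Tek was above background on 3 of 5 KR-N+/- arrays and Cdh5 on 1 of 5. With equal medians none of the 9 passed and the median in KHR-N-/- against KR-N-/- turned to 0.04, and their part in the Cd34 values was not tested.

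Of 36 other transcription factors of these epithelia, 26 were tested. Elf5 and Elf3, ETS factors of epithelial cells, fell in both Notch1-/- groups, but against unlike groups, KHR and KR-N+/- tumours. In KHR-N-/- against KHR-N+/- tumours 0 of 26 passed. Elf5 differed by -1.23 in KHR-N-/- against KHR tumours and by -1.69 in KR-N-/- against KR-N+/- tumours, where it was above background on 1 of 4 KR-N-/- arrays, and Elf3 by -0.77 and -0.78. Of the 26, 3 fell in KHR-N-/- against KHR tumours (2.76% of all genes did), the other being Foxe1, a forkhead factor (-0.96), and 2 rose (4.57% of all genes did), including Klf6 (0.59). In KR-N-/- against KR-N+/- tumours 4 of 26 fell, where 6.63% of all genes did, among them Klf3 (-0.63) and Foxn1. Foxn1 was not above background on any of 4 KR-N-/- arrays. By group means it read at least 1.07-fold lower there, a bound that leaves out the spread between tumours. With arrays scaled to equal medians Elf5 (limma adjusted p 0.176 and 0.593) and Elf3 (0.387 and 0.888) did not pass. Neither did Foxe1, Klf6, Klf3 or Foxn1. In KHR-N+/- against KR-N+/- tumours 2 of 26 were lower and 0 higher, where 2.37% and 3.2% of all genes were. In KHR-N-/- against KR-N-/- tumours 4 of 26 were lower and 2 higher, where 6.5% and 6.31% of all genes were. Only the 4 with the largest differences are named, all of them lower. Trps1, a GATA-type repressor, was lower in KHR-N+/- than in KR-N+/- (-0.87) and in KHR-N-/- than in KR-N-/- tumours (-0.74). Pitx1 (-1.16) and Tfap2b (-0.98) were also lower in KHR-N-/- than in KR-N-/- tumours. With arrays scaled to equal medians none of these passed: Trps1 was at -0.02 and -0.12, Pitx1 at -0.50 and Tfap2b at -0.25. Pou3f1 was lower in both of these comparisons (-0.57 and -0.72), and the first turned to 0.44 and the second to 0.00 with arrays scaled to equal medians.

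Markers of other cell types differed between the groups. For the counts below, 4.57% of all genes rose and 2.76% fell in KHR-N-/- against KHR tumours. In KR-N-/- against KR-N+/- tumours 9.62% of all genes rose, and 2.37% were lower in KHR-N+/- than in KR-N+/- tumours. All 11 fibroblast and matrix markers rose in KHR-N-/- against KHR tumours and 7 of 11 in KR-N-/- against KR-N+/- tumours, or 6 and 0 of 11 with arrays scaled to equal medians. Their mean level ranged from 7.90 to 8.66 in KHR-N-/- tumours, 6.86 to 7.59 in KHR-N+/- tumours and 6.59 to 7.78 in KHR tumours, and from 7.87 to 8.19 in KR-N-/- and 6.85 to 7.33 in KR-N+/- tumours. Of 14 skeletal muscle markers, 11 rose in KHR-N-/- against KHR tumours and 10 were lower in KHR-N+/- than in KR-N+/- tumours, or 8 and 1 of 14 with equal medians, where Ckm in KHR-N+/- against KR-N+/- was at -0.61, Mylpf at -0.23 and Mb at -0.13. Their mean level ranged from 8.27 to 8.55 in KHR-N-/-, 7.80 to 8.35 in KHR-N+/- and 7.30 to 7.90 in KHR tumours, and from 8.25 to 9.19 in KR-N-/- and 8.70 to 9.42 in KR-N+/- tumours. The 9 pan-epithelial markers, which include keratins and E-cadherin, averaged 9.37, 9.40, 9.53, 9.50 and 9.48 in KHR-N-/-, KHR-N+/-, KHR, KR-N-/- and KR-N+/- tumours. Of the 9, 2 fell in KHR-N-/- against KHR tumours, Esrp1 (-0.83) and Krt17 (-0.37). With equal medians neither passed (limma adjusted p 0.32 and 0.479). Of 8 macrophage markers 4, and of 7 mast cell markers 3, rose in KHR-N-/- against KHR tumours. The 3 mast cell markers were near background in KHR tumours, with Tpsb2 detected on 2 of 5 arrays, Cpa3 on 3 and Cma1 on 1. The macrophage marker Cd163 was also detected on 3 of 5 KHR arrays. Aqp5, a water channel of salivary glands, was higher in KHR-N+/- than in KR-N+/- (1.33) and in KHR-N-/- than in KR-N-/- tumours (1.23). It was 1 of 8 salivary markers on the array and 1 of 2 tested. The other, Bhlha15, had estimates below 0 in both comparisons and was detected on 4 arrays, Dcpp1 on 3, Smgc, Amy1, Dcpp2 and Bpifa2 on 1 each and Prol1 on 0.

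**Figure D4:**
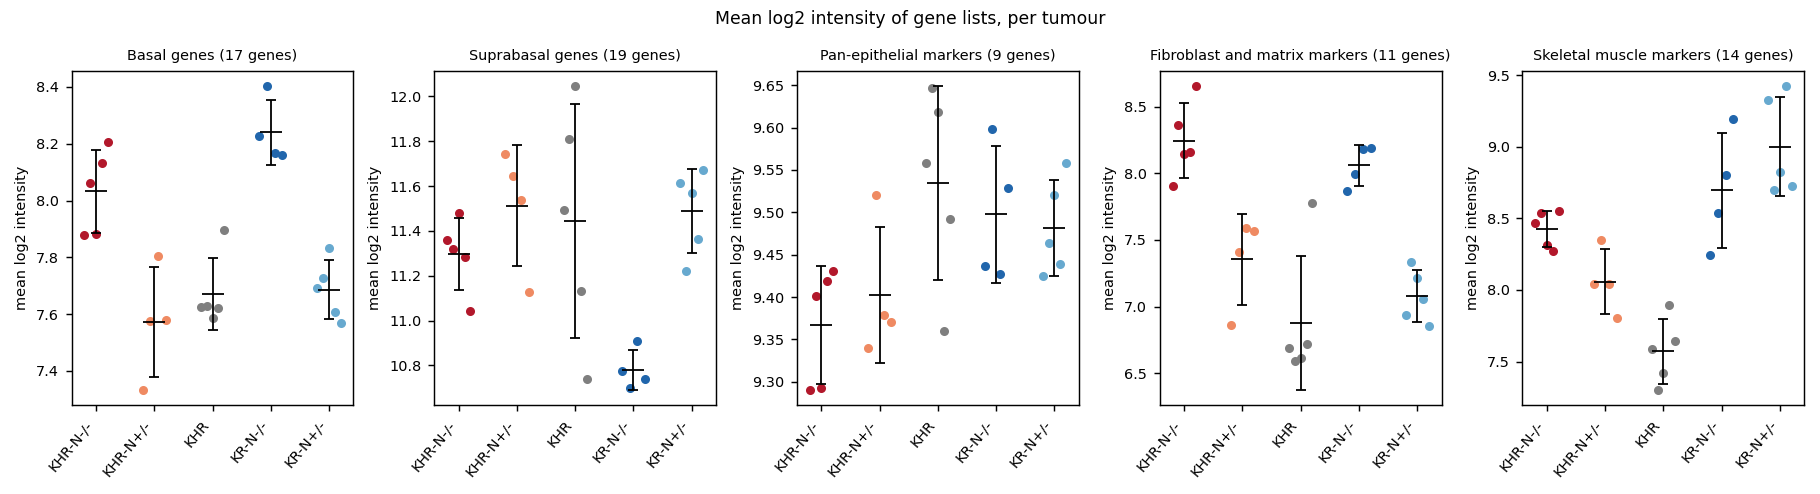
Mean log2 intensity per tumour (vertical axis) of 5 gene lists in the 5 groups (horizontal axis): 17 basal, 19 suprabasal, 9 pan-epithelial, 11 fibroblast and 14 skeletal muscle genes. Each point is 1 tumour. Fibroblast markers lie at 7.90 to 8.66 in KHR-N-/- and 7.87 to 8.19 in KR-N-/- tumours, while the pan-epithelial lists of the 5 groups average 9.37 to 9.53.

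Across the 23 tumours, the levels of Klf4, Grhl1, Grhl3 and Ovol1 varied together, and Klf5 varied the other way. Pearson's r was 0.789 between Klf4 and Grhl3 and 0.658 with the group means removed, and 0.758 and 0.705 between Grhl1 and Grhl3. Between Klf4 and Klf5 it was -0.764 and -0.597, and between Klf5 and Grhl1 -0.734 and -0.496. The pairs of Klf4 with Grhl1 (0.636 and 0.448) and Klf5 with Grhl3 (-0.555 and -0.232) were weaker. Klf4 and Ovol1 gave 0.678 and 0.719, Grhl3 and Ovol1 0.639 and 0.598, and Grhl1 and Ovol1 0.458 and 0.419. Klf5 gave -0.588 and -0.588 with Ovol1, and -0.536 and -0.587 with Gata3. Klf4 and Gata3 gave 0.543 and 0.548, and Trp63 and Klf4 -0.282 and -0.506. These are descriptions over arrays that share normalization and cell makeup, with no test.

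**Figure D5:**
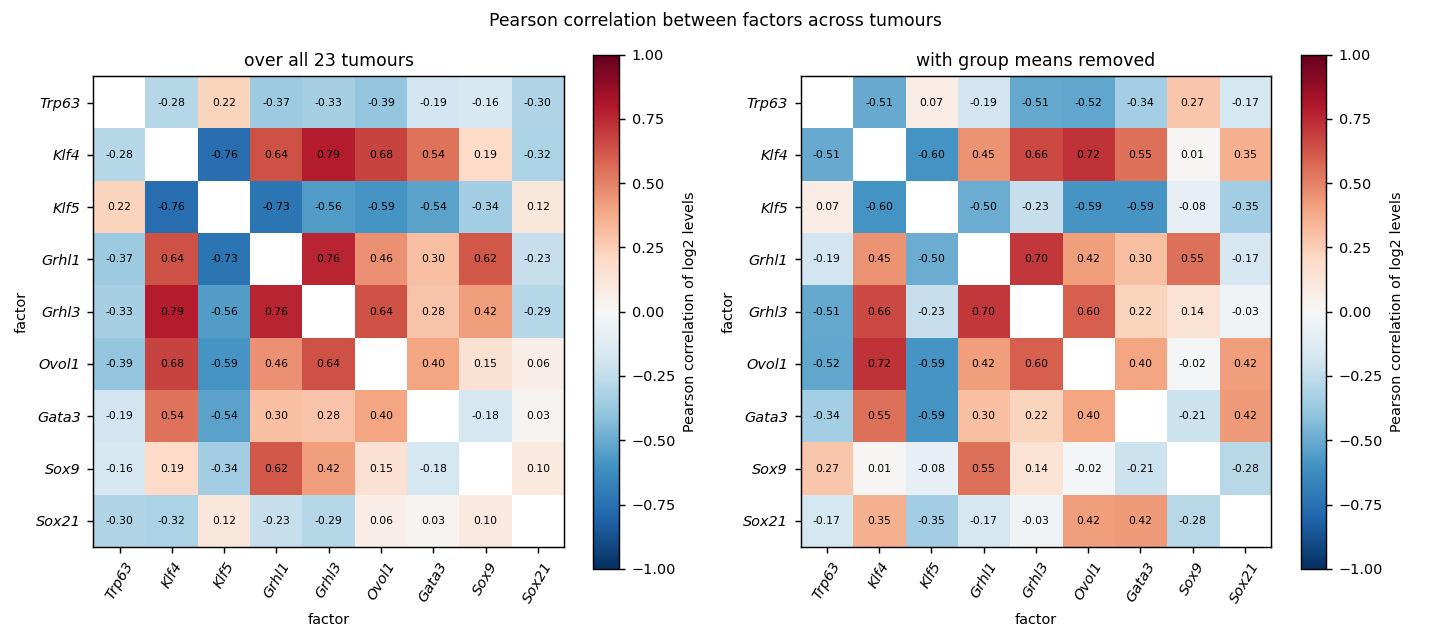
Pearson's r between the levels of the 9 tested factors over 23 tumours, as measured and with group means removed. Colour gives r from negative to positive. Klf4 and Grhl3 have 0.789 and 0.658, and Klf4 and Klf5 have -0.764 and -0.597.

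The genes whose levels were most like each factor's were taken as the 2 with the highest r over the 23 tumours among 9731 other genes. For Klf4 they were Klk5, a kallikrein protease of the upper epidermis (r 0.899), and Btg1 (0.891). Grhl3 went with Ugcg, which makes glucosylceramide (0.941), and Zranb1 (0.94), and Grhl1 with Hsd17b2 (0.897) and Sqle (0.881). Ovol1 went with Smpd3 (0.828) and Lce1b, a late cornified envelope gene (0.826), and Gata3 with Ift20 (0.798) and Hal (0.793). For Klf5 the genes were Camsap2 (0.892) and Sfxn1 (0.886), and for Trp63 Rilpl1 (0.848) and Smad4 (0.847). Sox9 went with Nrarp, a target and inhibitor of Notch signalling (0.863, and 0.697 with group means removed), and Tmprss11b (0.853). Sox21 went with Ntrk2 (0.834, and 0.568 with group means removed) and Rpl4 (0.83).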

How the data were processed

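Total RNA of 23 tumours was labelled and hybridised to bead arrays, per the labels' protocols. The submitters' processing notes name GenomeStudio and Partek, and neither versions nor roles are stated. The authors deposited a non-normalized table with each probe's intensity, its detection p-value and its bead count, and a table of processed intensity, whose columns ranked probes as the scanner values did, had medians of 4.44 to 4.55 and held 26.6% of values below 0; its scale and centring are not stated, and it served as an alternative. In the table, 23 columns of bead standard errors were not used.

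Symbols came from the platform annotation (23978 probes with 1 symbol, 1719 with none), of which 23962 matched RefSeq by Entrez identifier. Background was corrected by normexp with an offset of 16, arrays were quantile-normalized and log2 was taken in limma 3.58.1 (R 4.3.3). A probe entered if its detection p-value was below 0.05 on 4 or more arrays (13831 probes), and each gene was represented by its brightest probe (9732 genes). One model over all 5 groups left 18 residual degrees of freedom, p-values were adjusted by Benjamini-Hochberg within each of 7 comparisons, and the procedure was tested on simulated data. Correlations between arrays ran from 0.939 to 0.993. Intervals are 95%.

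The members and lists were chosen with earlier results of these data known. Named genes are all members, Notch1, at most 4 genes per list and comparison that passed with the largest difference, and the 2 genes most like each member. The replicate numbers follow the order of the tumour numbers in the sample titles. Same-numbered tumours deviated together in all 4 pairs of KHR-N-/- and KHR-N+/- (correlations of 0.137 to 0.281), and not in every pair elsewhere. Such correlations cannot tell paired tumours from arrays run together, and the main model assumed no pairing. Alternatives were other background corrections, scalings, filters, probe summaries, models, covariates, a replicate block and leaving out tumours. The covariate of fibroblast markers was chosen after seeing the data.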

Additional observations from a re-analysis of the deposited data

Results flagged for a closer look

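Ovol1 read 8.09 in KHR replicate 5, far below the other KHR tumours, which lay between 9.39 and 9.57. It was the 1 value set apart in this way among 45 combinations of tested factor and group, and 50 with Notch1 included, of which chance sets apart about 1 in 20. The same tumour had the lowest Klf4 level of the KHR group (8.90) and the highest level of fibroblast markers in it (7.78).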

How the results depend on the processing

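The counts of factors that passed were 2, 1, 0, 2, 1 and 2 in KHR-N-/- against KHR, KHR-N+/- against KHR, KHR-N-/- against KHR-N+/-, KR-N-/- against KR-N+/-, KHR-N+/- against KR-N+/- and KHR-N-/- against KR-N-/-, and 0 for the difference of effects. Scaling to equal medians changed most: it moved the median of all genes to 0.65 in KHR-N+/- against KR-N+/- and gave counts of 0, 0, 0, 0, 7 and 1, and in KHR-N+/- against KR-N+/- it turned Sox21 to 0.0843 and Klf5 to 0.73. In KHR-N-/- against KR-N-/- the count was 1 with no background correction, an offset of 50, no detection filter or the mean of a gene's probes. The mean of probes gave 0 in KHR-N+/- against KR-N+/-. Fits of only the groups compared gave 1, 0, 0, 5, 2 and 4. Array weights gave 3, 2, 1, 4, 3 and 5. Array intensity as a covariate gave 2, 1, 0, 3, 0 and 0, with Trp63 gained in KR-N-/- against KR-N+/-. Muscle markers as a covariate gave 0, 1, 0, 3, 0 and 1, and epithelial markers 1, 1, 0, 3, 1 and 3. Both gained Sox9 in KR-N-/- against KR-N+/- (-0.66 and -0.56), and epithelial markers gained Grhl3 in KHR-N-/- against KR-N-/- (1.05). With fibroblast markers the counts were 1 in KHR-N-/- against KHR (Klf4, 1.29, in place of Sox9 and Sox21), 0 in KR-N-/- against KR-N+/- and 4 in each comparison of KHR with KR tumours. In KR-N-/- against KR-N+/- they also turned Trp63, Klf4 and Grhl3, none of which had passed, to -0.12, 0.19 and 0.43, and Grhl3 in KHR-N-/- against KHR-N+/- to 0.41. Without the 2 tumours that stood apart KR-N-/- against KR-N+/- gave 3 and the last comparison 4. The cause of these changes was not tested.

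The replicate number as a block gave counts of 5 in KR-N-/- against KR-N+/- and 4 in KHR-N-/- against KR-N-/-. It gave 0 in KHR-N-/- against KHR-N+/- and moved no other count. The numbers were not shown to pair tumours in any comparison. Leaving out 1 tumour gave 2 to 2, 0 to 1, 0 to 0, 0 to 4, 0 to 2 and 1 to 5 factors, and 0 to 0 for the difference of effects. The single call in KHR-N+/- against KHR was lost without KHR-N+/- replicate 2, KHR-N+/- replicate 3 or KHR replicate 1. The count in KR-N-/- against KR-N+/- was 0 without KR-N-/- replicate 2, 1 without KR-N-/- replicate 4 and 4 without KHR replicate 3. KHR-N+/- against KR-N+/- tumours gave 0 when KHR-N+/- replicate 2, KHR-N+/- replicate 3 or KR-N+/- replicate 4 was left out, and 2 when KHR replicate 5 was. In KHR-N-/- against KR-N-/- it was 1 without KHR-N-/- replicate 2 or 3, KHR-N+/- replicate 3 or KR-N-/- replicate 1, 2 or 4, 5 without KHR replicate 4 and 4 without KHR replicate 5. Sox21 in that comparison passed in 15 of 23 such fits. All genes that passed numbered 714, 122, 10, 1581, 542 and 1247, with ranges over the alternatives of 82 to 2230, 0 to 891, 0 to 265, 3 to 1993, 24 to 4550 and 286 to 2265. Sox2, the dim Grhl1 and Sox21 probes, Foxn1, Cdh5 and the mast cell markers that rose lay near background in some or all groups, where arrays of this kind measure a difference poorly.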
